A study of Mus musculus with 12 samples.

Results

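Genes that bind metals or break down reactive oxygen species were followed in ribosome footprints of single mouse skin cells: the metallothioneins Mt1, Mt2 and Mt4, catalase (Cat), the peroxiredoxins Prdx5 and Prdx6, the glutathione peroxidases Gpx1 and Gpx4, superoxide dismutase 1 (Sod1) and thioredoxin reductase 1 (Txnrd1). They were taken by symbol, and 10 of 10 were found among the 22416 genes of the count tables. Nuclease digests the mRNA outside a ribosome and leaves the piece inside it, the footprint, so the counts reflect mRNA under translation. Epidermal cells came from the back skin of female C57Bl/6 mice that had received cycloheximide, which stalls ribosomes, into the tail vein 2 min before death. Each mouse is named by its postnatal day, P57, P59 or P60 if young and P662, P722 or P758 if old, and the labels give the ages as 56 to 60 days and 22 to 26 months (n = 3 per age). No animal went without cycloheximide, so its share in any level cannot be told apart from the rest. Cells were freed with trypsin and sorted live, 1 to a well.

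The 10 plates filled without a surface gate held 1906 wells of at least 100 counts, with 3382018 counts in all. P60 held 2384294 of these and P758 held 896688, against 70549 in P662, 12886 in P722, 12371 in P59 and 5230 in P57. Levels are given in CPM, a gene's counts divided by all counts of the same wells and scaled to a total of 1000000. A single count was worth 0.419 CPM in P60, 14.2 CPM in P662 and 191 CPM in P57, so that values of P57, P59 and P722 rest on a few counts each. Coding lengths were not used, and a level is compared only with the same gene elsewhere. An additional plate from P758 tested nucleases, and another held Sca-1-negative cells of an old and a young animal. Both stay outside every test.

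Metallothioneins are small, cysteine-rich proteins that hold zinc and copper. Mt1 and Mt2 are made in most tissues and are induced through the zinc-sensing factor MTF-1, which binds metal response elements, and also by glucocorticoids. Mt4 is known as the form of stratified squamous epithelia. Superoxide dismutase turns superoxide into hydrogen peroxide, which catalase, peroxiredoxins and glutathione peroxidases remove, and thioredoxin reductase keeps thioredoxin reduced for some of them. In the epidermis, basal cells attach to the basement membrane and divide, and spinous cells above them have left the cell cycle and make Krt1 and Krt10 in place of Krt5 and Krt14.

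Mt4, Mt2 and Mt1 lie in one cluster on mouse chromosome 8, with Mt3 between Mt4 and Mt2, and all are protein coding (GRCm38.p6). Mt4 spans 94137204 to 94139031, Mt2 spans 94172618 to 94173567 and Mt1 spans 94178883 to 94180327. From the start of Mt4 to the end of Mt1 is 43.1 kb, and Mt2 and Mt1 are 5.32 kb apart. Their promoter windows, 250 bases before to 50 after a transcript start as RefSeq's table gives them, are shown because these 3 genes of the cluster had unlike levels in the cells described here. Capitals mark each match, on either strand, to the core of the metal response element, searched as TGCACNC and TGCGCNC. The window of Mt1 was drawn around a start inside the annotated gene span. All 3 are read on the plus strand, at chr8:94178839-94179138 for Mt1, chr8:94172368-94172667 for Mt2 and chr8:94136954-94137253 for Mt4.
Mt1: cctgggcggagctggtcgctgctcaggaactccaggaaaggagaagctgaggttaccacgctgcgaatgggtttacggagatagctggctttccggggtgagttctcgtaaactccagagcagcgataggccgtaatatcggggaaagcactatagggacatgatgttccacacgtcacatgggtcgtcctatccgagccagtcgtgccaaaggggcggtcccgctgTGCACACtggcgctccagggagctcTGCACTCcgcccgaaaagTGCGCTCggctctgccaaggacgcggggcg
Mt2: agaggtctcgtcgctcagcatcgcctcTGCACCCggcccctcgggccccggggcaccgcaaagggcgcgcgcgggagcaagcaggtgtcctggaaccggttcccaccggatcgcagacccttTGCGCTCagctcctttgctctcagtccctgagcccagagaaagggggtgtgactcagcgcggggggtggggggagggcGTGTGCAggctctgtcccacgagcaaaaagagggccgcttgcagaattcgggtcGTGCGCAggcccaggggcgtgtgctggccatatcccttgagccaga
Mt4: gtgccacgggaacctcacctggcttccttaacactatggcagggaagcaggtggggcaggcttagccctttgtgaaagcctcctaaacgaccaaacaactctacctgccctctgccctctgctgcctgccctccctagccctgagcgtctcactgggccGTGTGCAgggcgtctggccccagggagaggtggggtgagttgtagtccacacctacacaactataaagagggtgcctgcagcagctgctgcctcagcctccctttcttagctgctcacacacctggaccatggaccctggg

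Mt1 held 3 matches, Mt2 held 4 and Mt4 held 1. Sequence outside these windows was not searched, and that of Mt1 is set around 1 start inside the gene span. The numbers therefore do not compare whole promoters. Of all 32851 promoter windows of the same length in that table, 25.7% held at least 1 match, 1.97% held 3 or more and 0.517% held 4 or more. None of the windows of Cat, Prdx5, Gpx1, Gpx4, Sod1 and Txnrd1 held one. The antioxidant response element, the core bound by NRF2, was searched as TGACNNNGC on both strands and was present in 12.4% of windows. It was found once in the windows of Mt2 and Sod1 and in 1 of the 3 windows of Txnrd1. A match describes letters only.

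Wells were assigned to a layer from keratins and from no other gene. A well with at least 5 counts of Krt5, Krt14, Krt1 and Krt10 was called basal where Krt1 and Krt10 made at most 0.2 of them, spinous where they made at least 0.8 and mixed in between. This gave 1086 basal, 168 mixed and 376 spinous wells, and 276 wells had fewer such counts. These are ranges of a ratio rather than cell types: 85 of the 1630 wells lay just inside the basal limit and 24 just outside it, and 42 lay just inside the spinous limit and 22 just outside it. Genes that the rule did not use followed the names. Krtdap was 6.34 higher and Sbsn 5.00 higher on the log2 scale in spinous wells, and Lamb3, a subunit of the basement membrane protein laminin-332, was lower by a log2 change of -5.01 and the integrin Itgb4 by -3.68. Marker lists of other cells made small shares of counts in both layers: 7 T cell genes summed to 0.00555% in basal and 0.000818% in spinous wells. The animals differed in other lists. The 6 upper hair follicle genes made 0.198% in basal and 0.678% in spinous wells of P60 but 0.171% and 0.159% in P758. The 9 granular genes made 0.00699% and 0.0226% in P60 and 0.00724% and 0.470% in P758. The 4 melanocyte genes were listed at 0 in basal wells.

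Between basal and spinous wells the 3 metallothioneins went in different directions. Mt2 was several times lower in spinous wells, Mt1 was lower by less, and Mt4 was nearly absent from basal wells and plain in spinous wells. Mixed wells were compared within P758 and P60, since the other animals held at most 5 counts of each of these genes in them. Mt2 in mixed wells was at 437 CPM in P758 and 160 CPM in P60, between the basal and spinous values of both animals given next. Mt1 was at 1135 CPM in mixed wells of P758, between its other layers, and at 377 CPM in P60, close to the basal 369 CPM there. Mt4 was at 687 CPM in mixed wells of P758, above its spinous wells, and at 128 CPM in P60, below them. The plates of P758 differed in this order. On the plate with 50 of the 66 counts, mixed wells were at 1083 CPM and spinous wells at 441 CPM. On the other plate they were at 321 and 515 CPM, the reverse order.

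Mt2 stood at 1033 CPM in the basal wells of P758, 608 in P662, 435 in P59, 314 in P60 and 158 in P722. In spinous wells of the same animals it stood at 158, 59.2, 419, 72.1 and 380.2 CPM. It was higher in basal wells of 4 of 5 animals. In P722, the exception, each value is 1 count, and in P59 the values are 2 counts and 1 count. P57 held 3 wells of each layer with no count of Mt2 and was left out of the layer comparison.

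Mt1 stood at 1231 CPM in the basal wells of P758, 1088 in P59, 730.0 in P662, 369 in P60 and 158 in P722. The spinous values in that order were 408, 1258, 177, 280.4 and 0 CPM. Basal wells were higher in 4 of 5 animals, with P722 among them on 1 basal count and 0 spinous counts. P59 went the other way on 5 basal and 3 spinous counts. The basal value of P60 lay below the spinous value of P758.

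Mt4 was at 0 in the basal wells of P59, P662 and P722, at 3.01 CPM in P60 (5 counts) and at 15.4 CPM in P758 (7 counts). In spinous wells it was at 1677 CPM in P59, 487 in P758, 384 in P662, 380.2 in P722 and 321 in P60. No basal value of any animal reached a spinous one, in 5 of 5 animals. The spinous values of P59 and P722 are 4 counts and 1 count. Their basal 0 allows up to 803 and 584 CPM by exact 95% intervals, above the spinous values of P758, P662 and P60. In P59 and P722 the order is therefore not settled, and in P662 the basal 0 allows up to 224 CPM. A count of Mt4 was found in 4 of 646 basal wells of P60 (0.619%, exact 95% interval 0.169 to 1.58%) and in 58 of 147 spinous wells (39.5%). Thinned to 500 counts per well, these shares were 0.113% and 13.9%, with 74 basal wells too shallow to enter.

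Among the enzymes, catalase and Prdx5 had higher levels in spinous wells of 4 of 5 animals, and Prdx6 in P60 and P758 only. Prdx5, a peroxiredoxin of mitochondria and peroxisomes, was at 124 CPM in the basal wells of P60, 101 in P758 and 60.8 in P662. The spinous values in that order were 599, 604 and 651 CPM. The ranges of the layers were far apart in these animals. P59 had 0 basal counts and 1 spinous count and P722 had 1 and 0.

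Catalase, the peroxisomal enzyme that splits hydrogen peroxide, was at 200 CPM in the basal wells of P60, 165 in P758 and 122 in P662, and at 357, 459 and 325 CPM in their spinous wells. P722 was at 317 and 1141 CPM and P59 at 435 and 0 CPM, each on 3 counts or fewer. Spinous wells were higher in 4 of 5 animals. In P758 a single spinous well held 56 of the 145 counts of Cat. Without that well the level there was 308 CPM, still above the basal 165 CPM. Prdx6, which acts in the cytosol and also has phospholipase activity, was at 151 CPM in basal and 228 CPM in spinous wells of P60 and at 140.4 and 228 CPM in P758. The order was the reverse in P662 (304 and 207 CPM), P59 and P722, where 5, 2 and 2 basal counts were seen.

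Gpx1, the cytosolic glutathione peroxidase, was at 328 CPM in basal and 240.4 CPM in spinous wells of P60 and at 344 and 218 CPM in P758. P662, with 2 and 7 counts, went from 122 to 207 CPM. Sod1 was at 53.0 and 16.0 CPM in P60 and at 39.5 and 6.32 CPM in P758, with 88, 8, 18 and 2 counts. P662 went the other way, from 0 to 59.2 CPM on 2 counts. Txnrd1 was at 36.1 and 22.0 CPM in P60 and at 70.2 and 19.0 CPM in P758. Gpx4, which reduces lipid peroxides in membranes, gave 46 basal and 5 spinous counts in P60 and 9 and 4 in P758. Of the spinous counts of Gpx4, Sod1 and Txnrd1 in P758, a single well held 3 of 4, 2 of 2 and 3 of 6.

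**Figure D1:**
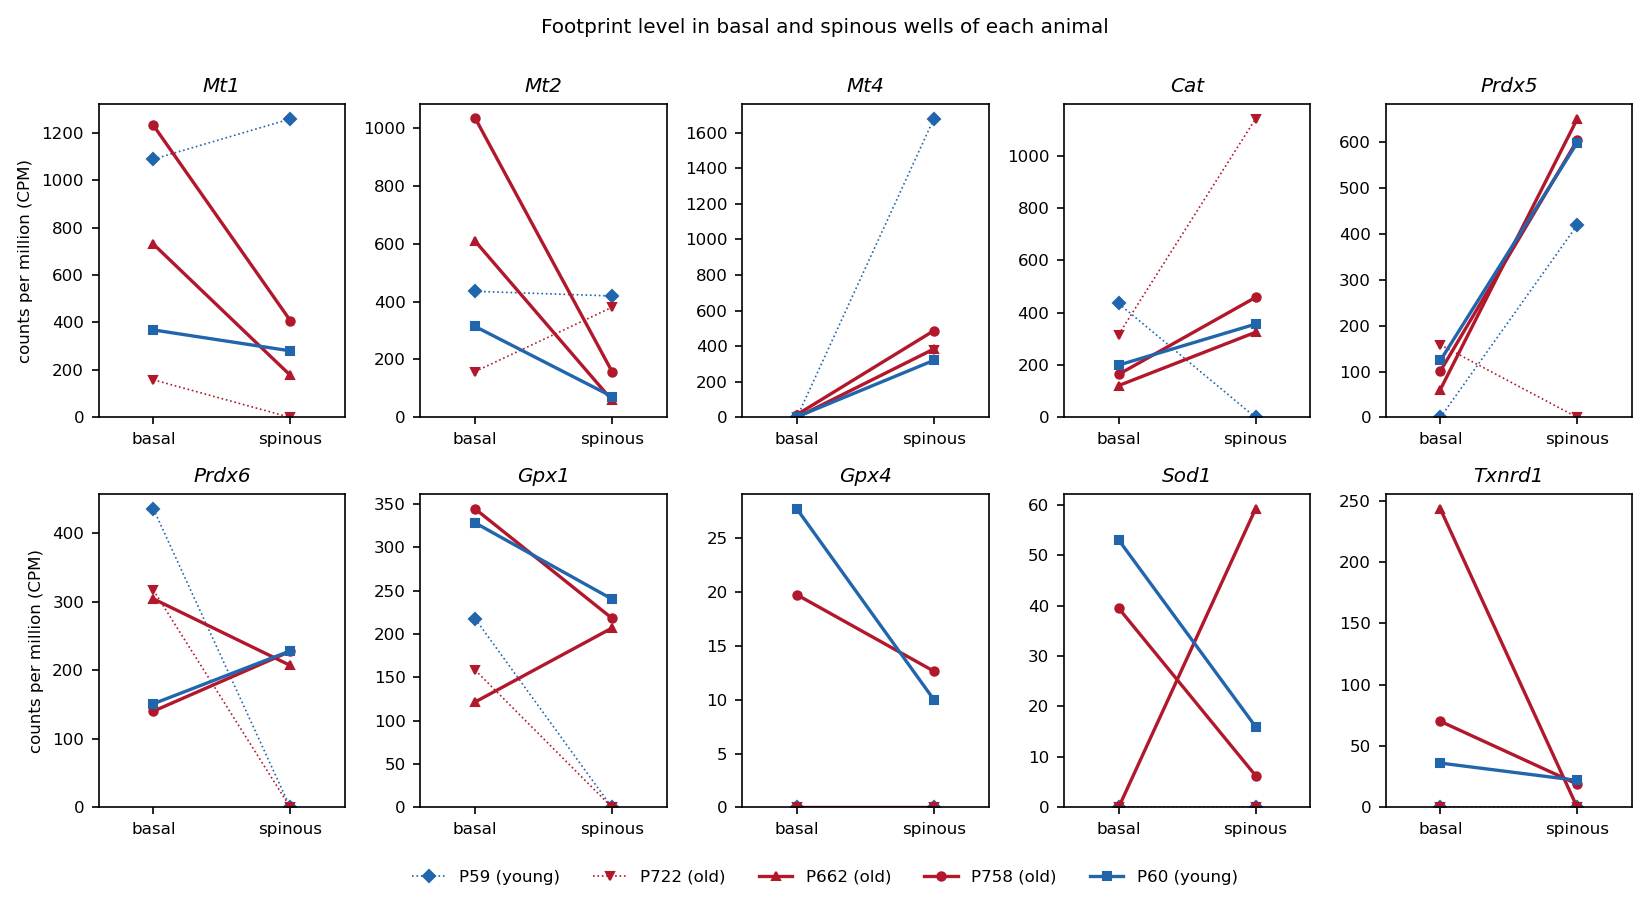
Level of each gene in CPM (vertical axis, from 0) in the basal and spinous wells of 5 animals, joined by a line per animal. Red is old and blue is young, and dotted lines mark P59 and P722, whose values rest on few counts. Mt4 and Prdx5 rise from left to right in the 3 animals drawn with solid lines, and Mt1 and Mt2 fall in them.

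The plates of the 2 best covered animals repeat these orders. On 5 of 5 plates of P758 and P60, Mt4, Cat, Prdx5 and Prdx6 were higher in spinous wells and Mt1, Mt2, Gpx1, Sod1 and Txnrd1 were higher in basal wells. The basal level of Mt2 was 3.79 to 7.99 times the spinous level over these plates, that of Mt1 1.06 to 3.04 times and that of Gpx1 1.08 to 1.84 times. The spinous level of Prdx5 was 4.42 to 6.70 times the basal level, that of Cat 1.52 to 2.94 times and that of Prdx6 1.02 to 3.07 times. Sod1 and Txnrd1 had at most 6 spinous counts on any of these plates. The share of all genes with the same order on 5 of 5 plates was not computed. Exact 95% Poisson intervals of the layers were apart on all 5 plates for Mt2, Mt4 and Prdx5, on 4 for Cat, on 2 for Mt1, Prdx6, Gpx1 and Sod1, on 1 for Gpx4 and on 0 for Txnrd1. Such intervals cover counting error only, and plates of an animal are technical repeats.

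The layers were tested across the 5 animals with edgeR's quasi-likelihood test, with the animal as a block and Benjamini-Hochberg adjustment over all genes tested. A gene is called at an adjusted p below 0.05. The filter on low counts left 321 genes, and 193 of them (60.1%) were called, 27.1% higher and 33% lower in spinous wells. Mt1 was the only one of the 10 genes in that fit. It fell by 1.04 on the log2 scale from basal to spinous wells (SE 0.216, adjusted p = 2.60e-05), among the 33% that were lower. With the animal left out as a block the change was -1.19. Without the wells in which markers of other cells exceeded 2% of counts it was -0.96.

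Without that filter 15422 genes could be tested and 12.8% were called, 5.87% higher and 6.94% lower in spinous wells. Of the 10 genes, 4 were called higher and 3 lower. Mt4 had a log2 change of 6.06 (SE 0.330, edgeR adjusted p = 2.90e-72), Prdx5 of 2.61 (SE 0.222), Cat of 1.30 (SE 0.210) and Prdx6 of 0.75 (SE 0.222, adjusted p = 0.00797). Mt2 changed by -2.21 (SE 0.243, adjusted p = 6.45e-18), Sod1 by -1.50 (SE 0.498, adjusted p = 0.0228) and Mt1 by -0.81 (SE 0.214, adjusted p = 0.00185). Txnrd1 at -1.17, Gpx4 at -0.93 and Gpx1 at -0.30 did not pass, with adjusted p = 0.0650, 0.512 and 0.576. The p-values of this fit lean on a spread pooled over genes, and most counts came from P758 and P60. They therefore say little about the spread of a gene between animals. Mt4 had 12 basal counts in this comparison, 7 in P758 and 5 in P60. The median log2 change of the 10 genes was -0.55, against -0.21 for all genes tested. With a filter at a mean of 20 CPM in its place 6448 genes were tested and 27.2% were called, 11% higher and 16.2% lower, and of the 8 members tested 4 were called higher and 3 lower.

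The filter requires counts in shallow animals too, and a fit of the 3 animals with at least 50000 counts (P662, P758 and P60) was added after the data had been seen. It tested 6324 genes and called 27.8%, 13.6% higher and 14.2% lower in spinous wells. All members except Gpx4 entered it. Mt4, Prdx5, Cat and Prdx6 were called higher, at log2 changes of 6.02, 2.56, 1.26 and 0.73, and Mt2, Sod1, Txnrd1 and Mt1 lower, at -2.32, -1.58, -1.24 and -0.89. Gpx1 stayed uncalled at -0.34 (edgeR adjusted p = 0.218). DESeq2 on the same sums called Mt4, Prdx5, Cat and Mt2 and left Mt1 (adjusted p = 0.100), Sod1, Txnrd1 and Prdx6 uncalled. The share of all genes that DESeq2 called is not given here.

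**Figure D2:**
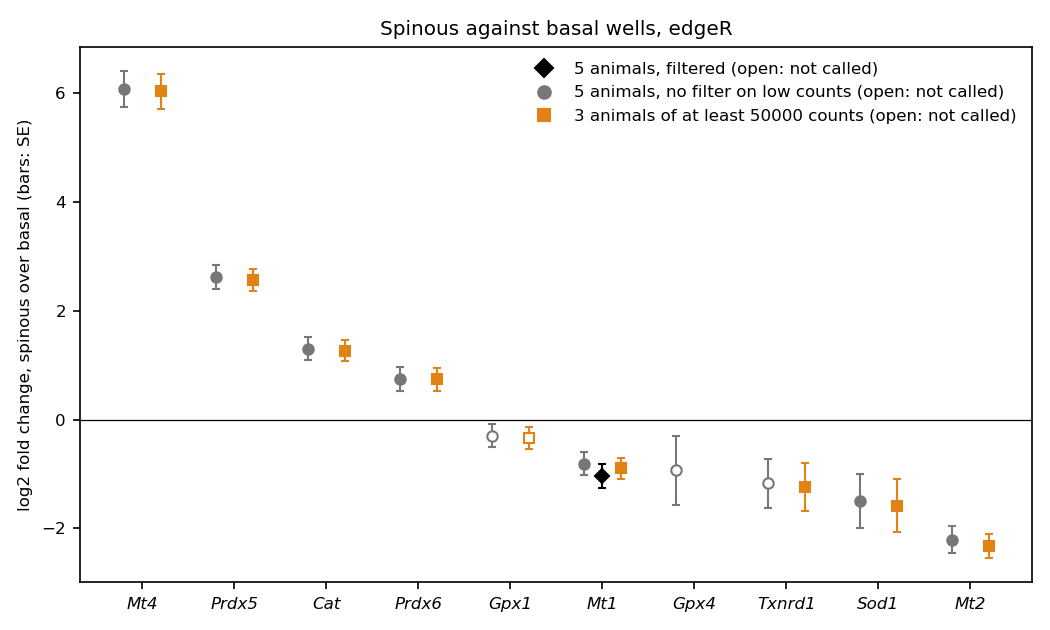
Log2 fold change from basal to spinous wells (vertical axis) with its SE for each gene in 3 edgeR fits, where filled symbols were called at an adjusted p below 0.05 and open symbols were not. Mt4, Prdx5, Cat and Prdx6 lie above 0 and the other 6 genes lie below it, and the fits differ little for any gene they share.

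A list of 60 other genes of zinc handling, glutathione, thioredoxin and NRF2 targets puts the members beside their pathways. In the filtered layer fit 1 of them was tested, and it was called lower: Txnip, which binds and inhibits thioredoxin, changed by -0.83 (SE 0.218, edgeR adjusted p = 0.000806). Without the filter 56 were tested, and 4 were called higher and 10 lower in spinous wells, where 5.87% and 6.94% of all 15422 genes were. The median log2 change of the list was -0.20 against -0.21 for all genes. Those called higher were Me1 (2.58) and G6pdx (1.39), which both make NADPH, the selenium carrier Selenop (2.01) and the glutathione transferase Mgst2 (1.92). The ferritin heavy chain Fth1, which stores iron, was called lower at -2.54, and its level went from 465 to 56.9 CPM in P758 and from 432 to 66.1 CPM in P60. Mgst1 (-3.30), Gpx8 (-3.12), Prdx4 (-3.00) and Nqo1 (-2.03), the NRF2 target that reduces quinones, were also called lower. Ftl1, the ferritin light chain, was called lower too, with 36 basal counts in P60, 7 in P758 and 0 spinous counts in all animals. Mt3, Sod3, Gpx2 and Gpx3 were listed at 0 in every animal.

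No member was called between old and young animals. Over all wells the level of Mt1 was 893 CPM in P758, 482 in P662 and 77.6 in P722, and 346 in P60, 1293 in P59 and 0 in P57. The ages overlap fully, and the P722 value is 1 count and the P59 value 16 counts. The 0 of P57 allows a level of up to 574 CPM at 3 counts. Old animals had a mean of 484 ± 408 CPM and young animals one of 546 ± 669.6 CPM (SD over 3 animals of each age, exact two-sided permutation p = 1).

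Mt2 was at 629, 369 and 155 CPM in the old P758, P662 and P722, and at 245, 404 and 0 CPM in the young P60, P59 and P57. Mt4 was at 253, 213 and 77.6 CPM against 78.4, 323 and 382 CPM in the same order. Neither gene separated the ages. Cat was at 273, 255 and 466 CPM in old and 237, 243 and 956 CPM in young animals, and Prdx5 at 307, 354 and 155 CPM and 231, 243 and 382 CPM. Prdx6 was at 186, 198 and 155 CPM in old animals and at 167, 162 and 0 CPM in young ones, and Gpx1 at 290.0, 170.1 and 77.6 CPM and 298, 80.8 and 191 CPM. Gpx4, Sod1 and Txnrd1 were at 0 in P722, P59 and P57 alike. None of the 10 genes was without overlap between the ages, against 7.73% of the 6714 genes whose mean reached 20 CPM. The exact permutation p-values of the 10 genes ran from 0.3 to 1, where 3 against 3 animals cannot give less than 0.1.

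**Figure D3:**
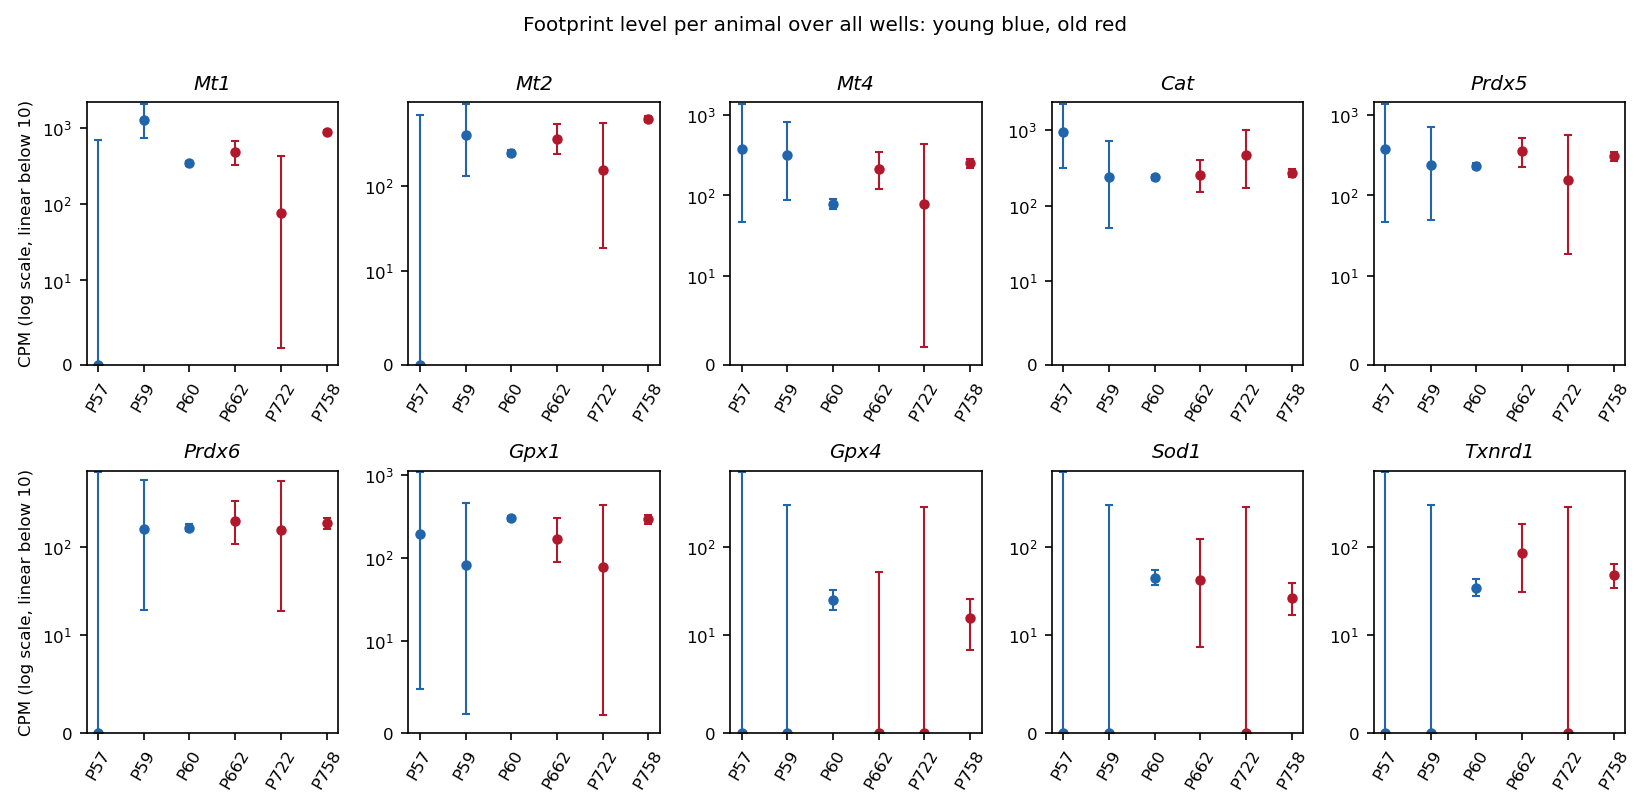
Level per animal over all wells, in CPM on a log scale that is linear below 10, with exact 95% Poisson intervals of the counts. Young animals are blue and old animals red. In every panel the values of the 2 colours overlap, and the intervals of P57, P59 and P722 are wide.

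In edgeR's test of age over all wells 0 genes were called (0%), with 25 at an unadjusted p below 0.05. DESeq2 called 0 with 6 below that p, and limma-voom on plates called 0 with 109 below it. Of the 10 genes 5 entered the edgeR fit, and their log2 changes from young to old were 1.14 for Mt4 (SE 0.632), 0.96 for Mt2 (SE 0.464), 0.40 for Prdx5 (SE 0.299), 0.19 for Mt1 (SE 0.857) and 0.11 for Cat (SE 0.378), each with an adjusted p of 0.998. The means over animals went the other way for Mt4 (181 CPM in old and 261 in young), Prdx5 (272 and 285), Mt1 (484 and 546) and Cat (331 and 478). DESeq2 gave Mt4 0.14 and Cat -0.22. Without the filter 0.699% of 15873 genes were called, and with a filter at a mean of 20 CPM in its place 0.67% of 6714, with no member among them. Within a layer the young group was 2 animals, P59 and P60, against 3 old. In basal wells the fitted log2 changes from young to old were 1.17 for Mt2 (SE 0.628) and 0.81 for Mt1 (SE 0.744), while Mt1 averaged 706 CPM over the old and 729 CPM over the young animals. There 0 of 265 genes were called (0%), with 9 below an unadjusted p of 0.05 in edgeR and 1 in DESeq2. Within spinous wells 0 of 806 genes were called (0%), with 18 and 1 below that p, and Mt2 was at 0.83, Cat at 0.37, Mt4 at 0.25, Mt1 at 0.11 and Prdx5 at 0.04. Of these only Cat was also higher in old animals by the means there (642 and 178 CPM). The age difference itself was compared between the layers in 808 genes, of which 3 were called (0.371%), none by DESeq2. Mt1 gave -1.35 in that test, a smaller age difference in spinous than in basal wells, with an edgeR adjusted p of 0.809.

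The plates of P758 and P60 alone would give another picture, since each is 1 animal. Mt1 ran from 842 to 967 CPM over the plates of P758 and from 313 to 377 CPM over those of P60. Mt2 was at 628 and 630.0 CPM against 210.1 to 276 CPM, and Mt4 at 226 and 293 CPM against 67.9 to 82.4 CPM. The plates of these 2 animals did not overlap for these 3 genes, nor for Prdx6, which was higher in P758, and Gpx4 and Sod1, which were lower in it. The share of all genes that part in this way was not computed, so the number of members cannot be judged against it. Spinous wells were 157 of 627 in P758 and 147 of 981 in P60, and in spinous wells alone Mt4 was at 487 and 321 CPM, where the granular genes also differed (0.470% and 0.0226% of counts). The part of those genes in the Mt4 level was not tested. In basal wells alone Mt1 was at 1231 and 369 CPM and Mt2 at 1033 and 314 CPM. In the fit of the 3 animals with at least 50000 counts, the young group is P60 alone, so the spread rests on the 2 old animals and is assumed to hold for P60. Its log2 changes from young to old were 1.62 for Mt4, 1.10 for Mt2, 1.06 for Mt1, 0.64 for Txnrd1 and 0.48 for Prdx5. Prdx6 and Cat were both at 0.18, Gpx1 at -0.24, Sod1 at -0.64 and Gpx4 at -0.80.

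The level of Mt1 and Mt2 moved with genes of the immediate early response, such as Fos, Jun and Egr1, whose transcription starts soon after a stimulus and needs no new protein. Their list of 13 genes also holds the heat shock genes Hspa1a and Hspa1b. It made 2.31% of counts in P662, 1.98% in P59 and 1.20% in P758, where Mt1 and Mt2 together reached 850.5, 1698 and 1522 CPM. It made 0.442% in P722, 0.367% in P60 and 0.172% in P57, where the 2 genes summed to 233, 591 and 0 CPM. The 3 animals with the larger share were those with the higher sum, and 2 of them are old and 1 is young. A list of 7 genes that respond to glucocorticoids parted the animals in the same way. That list made 0.234% of counts in P59, 0.196% in P662 and 0.167% in P758. In P722, P57 and P60 it made 0.132%, 0.115% and 0.100%. The shares of P59, P722 and P57 rest on 29, 17 and 6 counts, so this split is not settled either. The part of either list in the age values was not tested.

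Among basal wells of an animal, Mt1 and Mt2 also went with the immediate early list in P758 and P60. The basal wells of P758 were ranked by their share of immediate early counts and parted into 3 sets of 117 or 118 wells. Mt1 was at 388 CPM in the lowest set, 849 in the middle and 2474 in the highest, and Mt2 at 312, 816 and 1961 CPM. In basal wells of P60, Mt1 was at 228, 388 and 516 CPM and Mt2 at 222, 299 and 456 CPM. Catalase went the other way there, from 322 to 156 to 119 CPM, and was at 282, 94.3 and 146 CPM in P758. In P662 Mt2 was at 134, 398 and 1781 CPM in the basal sets, on 1, 2 and 7 counts, but Mt1 followed no such order, at 936, 398 and 763 CPM on 7, 2 and 3 counts. Gpx1 also rose with the list in the deeper animals, but by less. It was at 250.5, 361 and 373 CPM in P60 and at 274, 333 and 423 CPM in P758. The share of all genes that rise over these sets was not computed, so the rise cannot be called particular to Mt1 and Mt2.

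In spinous wells Mt1 ran from 152 to 427 CPM in P60 and from 225 to 879 CPM in P758 between the lowest and highest set, and P662 was at 326, 0 and 170 CPM on 5, 0 and 1 counts. Mt2 was lower in spinous than in basal wells in each of the 3 sets of P60 and P758. The immediate early list itself was lower in spinous wells of these animals, at 0.417% of counts in basal and 0.232% in spinous wells of P60, 1.47% and 0.921% in P758 and 3.04% and 1.80% in P662. It was higher there in P59 (1.70% and 2.22%). The part of this list in the layer values was not tested. Wells are not replicates, so these values are given as a description and their cause was not tested.

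**Figure D4:**
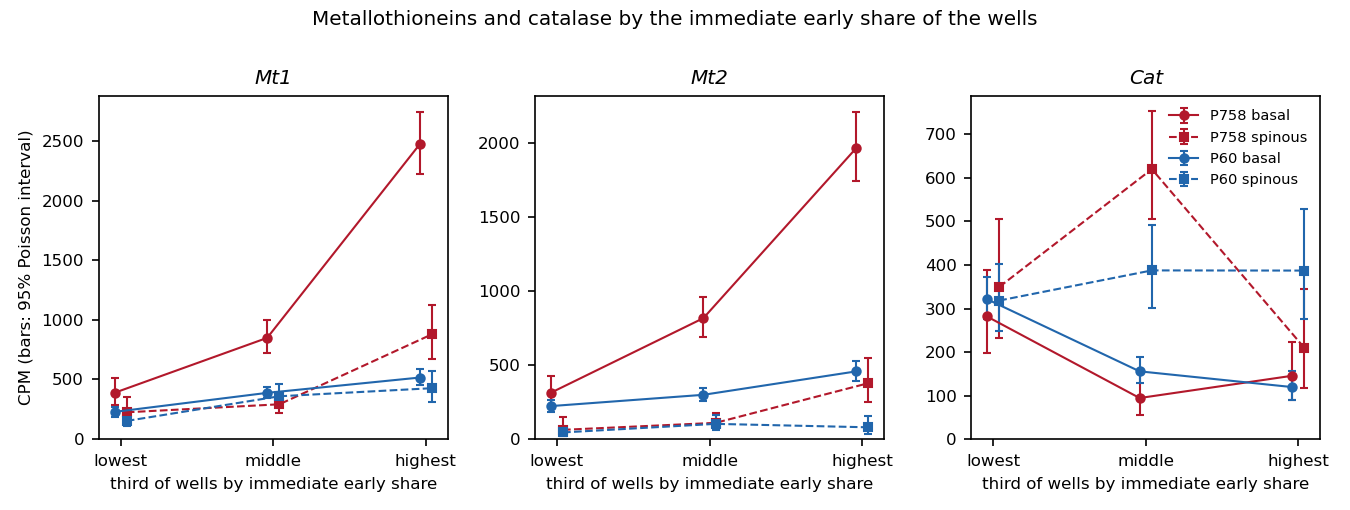
Level in CPM, with exact 95% Poisson intervals, in 3 sets of wells ranked by the share of immediate early counts, for basal (solid) and spinous (dashed) wells of P758 (red) and P60 (blue). Mt1 and Mt2 rise with the share in basal wells of both animals, up to 2474 and 1961 CPM in P758, and Cat falls from 322 to 119 CPM in basal wells of P60.

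Many wells held no count of a given member. In basal wells of P60, 281 of 646 wells (43.5%) held a count of Mt1, 237 (36.7%) of Mt2, 268 (41.5%) of Gpx1 and 169 (26.2%) of Cat. The 65 wells with the most counts of Cat held 68.7% of its counts but 22.2% of all counts, and a single well held 34. The same number of top wells held 51.5% of the counts of Mt1 and 51.9% of those of Gpx1. Top wells were picked by the gene's own counts, so low counts alone give a large share, more so with fewer counts. These wells held 332 counts of Cat, 612 of Mt1 and 545 of Gpx1 over all 646. What counting error alone would give was not computed, so the shares do not show an uneven spread. In spinous wells Mt1 was found in 44.9% of P60 wells and Mt2 in 19.0%. Thinned to 500 counts per well, Mt1 was found in 17.9% of basal and 17.4% of spinous wells of P60, and Mt2 in 15.5% and 5.71%. In P758 the thinned shares were 37.6% and 20.8% for Mt1 and 36.0% and 10.8% for Mt2.

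Mt1 and Mt2 were also set against each other within wells and layers. Mt2 made 46.0% of their joint counts in basal wells of P60 and 45.6% in P758, and 20.5% and 27.9% in spinous wells. Among basal wells of P758 with at least 1000 counts, Mt2 was found in 76.1% of 109 wells with a count of Mt1 and in 50.0% of 42 wells without one, at median depths of 1496 and 1507 counts. In P60 the shares were 56.6% of 219 and 33.7% of 205 wells, at unequal median depths of 2980 and 1849 counts. The coding sequences of Mt1 and Mt2 are close relatives, and the sources used here do not say how reads that fit both were counted. The same applies to Prdx6, Gpx4 and Ftl1, which have near copies in the genome.

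The genes most like each member were taken over 19 sums of a plate and layer with at least 5000 counts, which come from 8 plates of 4 animals and so share libraries. The measure was Pearson's r of log2(CPM + 10) over 887 genes with a mean of at least 200 CPM. Mt4 went most closely with Elovl4 (r = 0.95), which makes very long fatty acids, Ly6g6c (0.94) and Dmkn (0.92), a protein secreted by upper layers. Prdx5 went with Serpinb5 (0.95), Jup (0.94), which encodes plakoglobin of desmosomes, and Gsn (0.92). Mt2 went with Mapkbp1 (0.87), Fat2 (0.85) and the laminin chain Lama5 (0.83), and Mt1 with Rnase4 (0.79), Oplah (0.73) and Snrnp70 (0.72). Cat went with Hdac5 (0.84), Fam25c (0.76) and Anxa7 (0.74), Gpx1 with Abcc5 (0.78), Arrdc3 (0.78) and H1f2 (0.77), and Prdx6 with Trim29 (0.70), Hnrnpab (0.69) and Anxa7 (0.69). Between members r was 0.86 for Mt4 and Prdx5, 0.54 for Mt1 and Mt2, and -0.73 for Mt2 and Prdx5.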

How the data were processed

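Live epidermal cells were sorted into 384-well plates, nuclease removed the RNA outside ribosomes and the remaining fragments went into small-RNA libraries, per the labels' protocols. The deposited tables hold whole-number counts of footprints per gene and well. The submitters' processing notes name the build GRCm38.p6 and the tools STAR, featureCounts, Bowtie2, UMI-tools and fastp, whose settings and order the sources used here do not give. From the design text it was assumed that all plates sharing an age and a postnatal day hold 1 animal, and counts were summed per animal (P758 and P662 from 2 plates each, P60 from 3, the others from 1). Of 20 pairs of plates of one age, 0 were identical, with chi-square per degree of freedom from 1.32 to 3.70. The plates share well barcodes (383 of 384 occur on several), which mark positions and not cells. No doublet caller was run on sorted wells. On the Sca-1-negative plate the well names do not show which wells are old and which young.

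Counts were tested with edgeR 4.0.16 in R 4.3.3 (TMM, filterByExpr, robust quasi-likelihood fits, Benjamini-Hochberg at 0.05), the layer test with the animal as a block over the 5 animals with at least 5 wells in each layer. An SE was taken as the log2 change divided by the root of F. RLE factors, DESeq2 1.42.0, voom in limma 3.58.1 (on plates, where a random block stood for the animal), other filters, keratin limits and minimum counts, and leaving out each animal were alternatives. The fit was tested on simulated data. Intervals are exact at 95% and, like limits of 3 counts, cover counting error only. Single genes were compared with exact permutation tests in scipy 1.17.1 and figures drawn with matplotlib 3.10.9. The members, the gene lists and the marker lists were chosen with earlier results of these data known. The rule for named genes takes all members, of the list of 60 other genes those called (at most 6 per direction by p, with none called the 2 with the smallest p), and the 3 genes most like each member of at least 200 CPM. Of the deposited symbols, 21754 matched RefSeq's table of GRCm38.p6 and 662 did not; all 10 members matched. Promoters come from RefSeq, where Prdx6 had no window.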

Additional observations from a re-analysis of the deposited data

Results flagged for a closer look

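Over the 5 plates of each age, 20 sets of levels were examined for a plate far from the others, and 2 stood out. The rule's rate of 1 in 20 by chance holds for independent values of equal spread. It does not apply here, since plates of an animal are technical repeats and young plates ranged from 5230 to 1019380 counts. Both sets that stood out did so through the young plate of P57, which held 5230 counts. Cat was at 956 CPM there, on 5 counts (exact 95% interval 310.4 to 2231 CPM), against 185 to 351 CPM on the other young plates. Prdx6 was at 0 CPM there, which allows up to 574 CPM at 3 counts, against 161 to 175 CPM on the other young plates. No member's age difference passed the test of a difference between the layers, and no member was above the other plates of P758 on the nuclease plate beyond the counting intervals.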

How the results depend on the processing

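Of the calls on the 10 genes, none appeared between the ages under any alternative that kept a member in the fit, and 7 settings left none (age without P758; layer without P60, without P758, with keratin limits of 0.1 and 0.9 or with 3 wells per layer; age in basal wells without P758 or with 3 wells per layer). In the layer test 1 member was called, and 7 were called with no filter or a mean of at least 20 CPM, 6 with at least 10 keratin counts, 6 when P59, P662 or P722 was left out, and among animals of at least 50000 counts 8 with TMM, with RLE factors or without the keratins, and 4 with DESeq2, where Mt1 kept its direction but no longer passed; the other 15 values of Mt1 stayed called, from -1.19 to -0.81. More genes enter under most of these settings, so these counts of calls cannot be compared without the number tested. Of all genes, 60.1% of 321 were called in the layer test, 12.8% of 15422 with no filter and 27.2% of 6448 at 20 CPM. Among animals of at least 50000 counts (TMM) it was 27.8% of 6324. Shares for the other settings, and for the ages within a layer, are not given here. All genes called in the layer test were 193, and 1977 with no filter, 1754 at 20 CPM, 1079 at 10 keratin counts, 72 with 3 wells per layer, 122 with no replicate block, 1758, 1797, 1756 and 864 among animals of at least 50000 counts (TMM, RLE, without keratins, DESeq2), and 75 (without P758) to 1146 (without P722) with an animal left out. Between the ages 0 genes were called, and 111 with no filter, 45 at 20 CPM and 47 among animals of at least 50000 counts, of which 1 is young. In basal wells this count was 64 with no filter, 22 at 20 CPM and 0 to 35 with an animal left out (35 without P59, 30 without P722, 13 without P662); without P59 or P60 a layer's young group is 1 animal, assumed to vary like the others. In spinous wells it was 43, 27, 1 with 3 wells per layer, and 0 to 28 (28 without P59, 14 without P722). The age difference between layers gave 3 genes, 0 with DESeq2, 1 with 3 wells per layer and 0 to 6 with an animal left out (6 without P722, 1 without P758, 0 without P60 or P662).

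Signs of uncalled age changes were not stable. Over all wells Mt1 was -0.089 with DESeq2 and -0.47 to 1.00 with an animal left out (-0.47 without P60, -0.010 without P57), and Cat was -0.22 with DESeq2 and -0.069 with wells of at least 500 counts. In basal wells Mt1 ran from -0.22 (without P60) to 1.25. In spinous wells Mt1 was -0.76 with DESeq2, -0.33 with no filter, -0.26 at 20 CPM, -0.072 with keratin limits of 0.1 and 0.9 and -1.16 to 0.15 with an animal left out. Mt4 there was -0.38, -0.11 and -0.064 with the first 3 of these and -1.14 to 0.30 with an animal left out. Prdx5 was -0.027 with those keratin limits and -0.36 to 1.22 with an animal left out, and its difference between layers ran from -0.020 to 0.39. The causes were not tested. None of the members was without overlap between the ages in CPM, but without P722 2 were (Prdx6 and Txnrd1, higher in old), without P57 1 (Cat) and without P60 1 (Mt4). The share over all genes was not computed for these settings. No paired analysis was possible between the ages because old and young plates share no replicate number, and the layer fit has the animal as its block. Depth limits Gpx4, Sod1 and Txnrd1 most, which had 74, 135 and 132 counts in all.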

Other observations

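The plate from P758 that tested nucleases held 230 wells and 128007 counts, and its basal and spinous wells kept the orders of the other plates of that animal. Mt2 was at 1036 CPM in basal and 181 CPM in spinous wells, Mt4 at 15.5 and 492 CPM, Prdx5 at 124 and 259 CPM and Cat at 61.8 and 285 CPM. Over all its wells Mt1 was at 469 CPM (exact 95% interval 358 to 603), below the 842 and 967 CPM of the other plates, and Mt2 at 711 CPM, above their 628 and 630.0 CPM. Mt2 therefore made 60.3% of the joint counts of both genes (52.0 to 68.1%), against 39.3% and 42.8% on the other plates. The wells of that plate were digested with different nucleases at different concentrations, and the part of this in the share was not tested.

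The Sca-1-negative plate held 52 wells and 17377 counts. It gave 3 counts of Cat, 2 of Gpx1, 1 each of Mt1, Mt4 and Txnrd1 and 0 of the other 5 genes, where 0 counts allow up to 173 CPM. By keratins 44 of its wells had too few counts to be placed in a layer. On the other plates, wells with few keratin counts held T cell markers at 0.891% of counts, against 0.00555% in basal wells. Their Mt1 level was 189.9 CPM in P60 and 70.0 CPM in P758, on 13 and 2 counts. It was 712 CPM in P662 and 2117 CPM in P59, on 11 and 7 counts, and 0 in P57 and P722.

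Between the ages, Gsta4, a glutathione transferase that takes up lipid peroxidation products, was called higher in old animals without the filter on low counts (log2 change 4.37, edgeR adjusted p = 0.000222). It rests on few counts, with 8 basal counts in P758 and 1 each in P662 and P60. Gstm5 was called lower in spinous wells of old animals in the same way (-3.04, edgeR adjusted p = 0.0287), with 4 counts in P758 and 48 in P60. Its spinous counts were 0 in P662, P722 and P59, so the call rests on P758 against P60. Gsta4 and Gstm5 were found in a list of 60 genes of which no other was called between the ages in these fits.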
